A study of Mus musculus with 7 samples.

Results

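Osteoblasts are the cells that build bone, and 9 genes that they are known to express are described here: Bglap, Bglap2, Ibsp, Omd, Alpl, Smpd3, Ifitm5, Sp7 and Runx2. They were chosen as a named list, by symbol in the count files of the Tnc-/- mice and by the same Ensembl identifiers in those of the wild type, and are 9 of the 56854 identifiers that all 7 files share. Of the 9, 8 passed the filter on low counts and were tested among 17791 genes, and Omd had 0 counts in every library. The samples were whole shoulder joints of mice, taken 2 weeks after the supraspinatus tendon of the left shoulder, a tendon of the rotator cuff, had been repaired by surgery. All mice of both groups had the repair: 3 were wild type and 4 were Tnc-/-, lacking tenascin C, a glycoprotein of the extracellular matrix. Polyadenylated RNA was sequenced, with 1 library per mouse. The allele behind the Tnc-/- genotype and the strain, sex and age of the mice are not given in the sources used here, and no joint without repair was analysed here. A whole joint holds bone, marrow, cartilage, tendon and muscle, so in every value below fewer osteoblasts and less RNA per osteoblast cannot be told apart.

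Runx2 is the transcription factor that commits mesenchymal cells to the osteoblast lineage, and Sp7 (osterix) acts downstream of it. Osteoblasts then lay down a collagen matrix with smaller proteins in it, among them bone sialoprotein (Ibsp) and osteomodulin (Omd), and the phosphatase Alpl removes pyrophosphate, an inhibitor of mineral growth. Osteocalcin, encoded in the mouse by the neighbouring copies Bglap and Bglap2, is a protein of mature osteoblasts, which are present at the bone surface where a cuff tendon attaches.

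The libraries held 13.5 to 18.5 M (M, mega) gene counts in the wild type and 19.2 to 28.2 M in Tnc-/-. The targeted gene Tnc was at 437, 292 and 327 CPM (counts per 1e6 counts, scaled by TMM) in the 3 wild-type libraries and at 33.4, 38.9, 39.9 and 55.0 CPM in Tnc-/- libraries 1 to 4, so the groups did not overlap. Wild-type libraries 2 and 3 stood apart from library 1. In libraries 1 to 3 the genes of smell and pheromone receptors, which belong to sensory neurons of the nose, summed to 85.5, 1445 and 1020 CPM, against 32.8 to 41.3 CPM in Tnc-/-, and the median log2 ratio of genes spanning over 300 kb to their Tnc-/- mean was 0.44, 3.33 and 2.92. Calls of osteoblast genes, of other bone genes and of the marker lists are given with and without those libraries, and their part in these calls was not tested otherwise. The files of the genotypes also differ in form, with 56980 gene identifiers listed for the wild type and 56941 for Tnc-/-, and any difference in how they were made cannot be told apart from genotype.

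Among the 8 osteoblast genes tested, Bglap rose in Tnc-/-, to 1.47 times its wild-type level, and no other passed the threshold. The near-identical Bglap2 was not called, at a log2 fold change of -0.06. The count ratio of Bglap to Bglap2 was higher in all Tnc-/- libraries, with a two-sided exact permutation p of 0.0571, or 0.24 adjusted over 21 pairs, and 30.8% of all pairs of genes had ratios without overlap. Ibsp, Alpl, Smpd3 and Sp7 had overlapping groups, and Runx2, whose log2 fold change was -0.58, missed the threshold at an edgeR adjusted p of 0.065. The 1 member called higher stands against 10.3% of all tested genes called higher, and the 0 members called lower stand against 18.7% called lower, by edgeR's quasi-likelihood test with Benjamini-Hochberg adjustment over all genes. At an unadjusted p under 0.05 the count was 2 of 8 members, Bglap and Runx2, beside 42.3% of all genes. DESeq2 called the same pair, 1 higher and 1 lower, beside 12.3 and 22.9% of all genes, so the share of members called was near or below that of all genes. The median log2 fold change of the 8 was -0.06, beside -0.0009 over all genes tested.

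**Figure D1:**
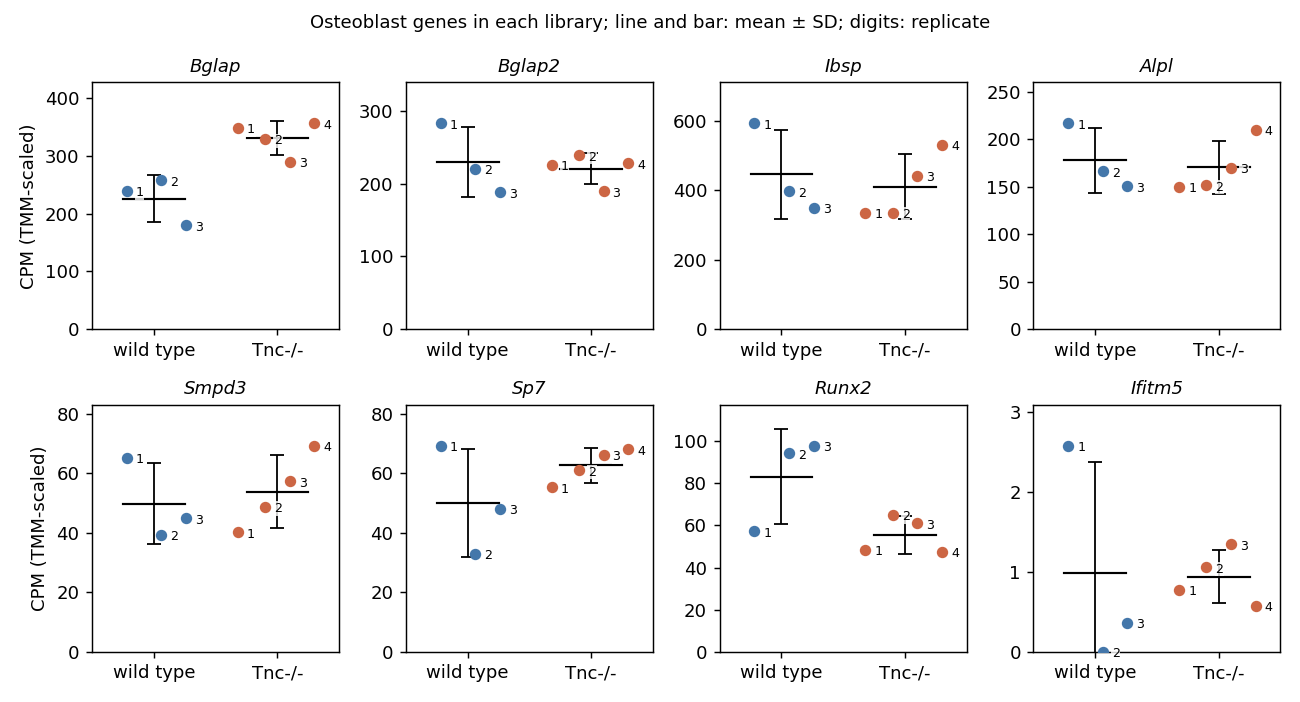
CPM of the 8 osteoblast genes with counts, scaled by TMM, in wild type (blue, n = 3) and Tnc-/- (orange, n = 4); points are libraries with their replicate number, the line is the mean and the bar is the SD. For Bglap all 4 Tnc-/- libraries lie above the 3 wild-type libraries, and for Runx2 wild-type libraries 2 and 3 lie above all others while library 1 lies among the Tnc-/- libraries.

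Osteocalcin was examined first, since its copies can share reads. Both lie on the minus strand of chromosome 3 and have coding sequences of 288 bases in the GENCODE M21 transcripts, which differ at 4 positions (98.6% identity). The coding sequences are shown because reads within them can be told apart only by these bases, with the differing bases in capitals.
Bglap: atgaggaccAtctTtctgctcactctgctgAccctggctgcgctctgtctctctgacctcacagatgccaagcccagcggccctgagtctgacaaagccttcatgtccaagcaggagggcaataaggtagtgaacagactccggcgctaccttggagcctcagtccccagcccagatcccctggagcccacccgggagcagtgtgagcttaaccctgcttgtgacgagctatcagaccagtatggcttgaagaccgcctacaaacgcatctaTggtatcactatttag
Bglap2: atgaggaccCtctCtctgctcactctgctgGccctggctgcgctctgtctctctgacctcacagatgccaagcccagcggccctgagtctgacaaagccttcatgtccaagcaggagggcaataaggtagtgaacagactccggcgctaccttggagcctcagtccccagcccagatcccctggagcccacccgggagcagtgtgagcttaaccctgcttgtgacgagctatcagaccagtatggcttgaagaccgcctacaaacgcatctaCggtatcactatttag
Of the 50-base windows of the Bglap transcript, 74.7% also occurred in Bglap2, and of its 150-base windows 31.6% did. Reads from such windows hold no base that tells the copies apart. Alignments that were not unique made up 6.67 to 8.32% of the reads listed for Tnc-/-. No such rows stand in the wild-type files, and how the counting assigned reads shared by the copies is not given in the sources used here, so the values of each copy are uncertain to that extent. The third copy, Bglap3, had 0 to 5 counts per library.

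Bglap stood at 239, 258 and 180 CPM in libraries 1 to 3 of the wild type. In Tnc-/- libraries 1 to 4 it was at 348, 329, 289 and 356 CPM. The lowest Tnc-/- library lay above the highest wild-type library. Such a lack of overlap was seen in 17.7% of all tested genes in this direction. The means were 225 ± 40.6 CPM (SD, n = 3) and 330 ± 29.6 CPM (SD, n = 4), and the log2 fold change was 0.55 (SE 0.17, 95% interval 0.17 to 0.93, edgeR adjusted p = 0.037). It was above 0 in all 18 alternatives, at 0.31 to 0.69, and passed the threshold in 4 of them. Without wild-type libraries 2 and 3 it was 0.46. Among the edgeR alternatives the adjusted p ran from 0.0034, without wild-type library 1, to 0.39, with the receptor genes as a covariate.

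Bglap2 was at 283, 220 and 188 CPM in the wild type and at 226, 239, 190 and 228 CPM in Tnc-/-. All 4 Tnc-/- libraries lay within the wild-type range. Its log2 fold change was -0.06 (SE 0.17, edgeR adjusted p = 0.81), and the 95% interval of -0.45 to 0.32 leaves room for a change of either sign.

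Within a library, the ratio of Bglap to Bglap2 counts needs no scaling between libraries, and was computed after the values of the genes had been seen. It was 0.845, 1.17 and 0.956 in wild-type libraries 1 to 3. In Tnc-/- libraries 1 to 4 it was 1.54, 1.376, 1.52 and 1.56. The groups did not overlap, and wild-type library 1, the one most like Tnc-/- in its receptor genes, had the lowest ratio. The difference was 0.61 on the log2 scale, or 1.53-fold (two-sided exact permutation p = 0.0571, which 3 against 4 libraries cannot go below), with an adjusted p of 0.24 in this exact test over the 21 pairs that 7 of the genes form. It was 0.50 to 0.74 with 1 library left out, and 0.83 without wild-type libraries 2 and 3. Of the 21 pairs, 5 had ratios without overlap, of which 4 had Bglap as a partner (with Bglap2, Ibsp, Alpl and Runx2) and the other was Sp7 to Alpl. Over all pairs of genes with at least 10 counts in every library, 30.8% had ratios without overlap, beside which 5 of 21 is no excess.

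**Figure D2:**
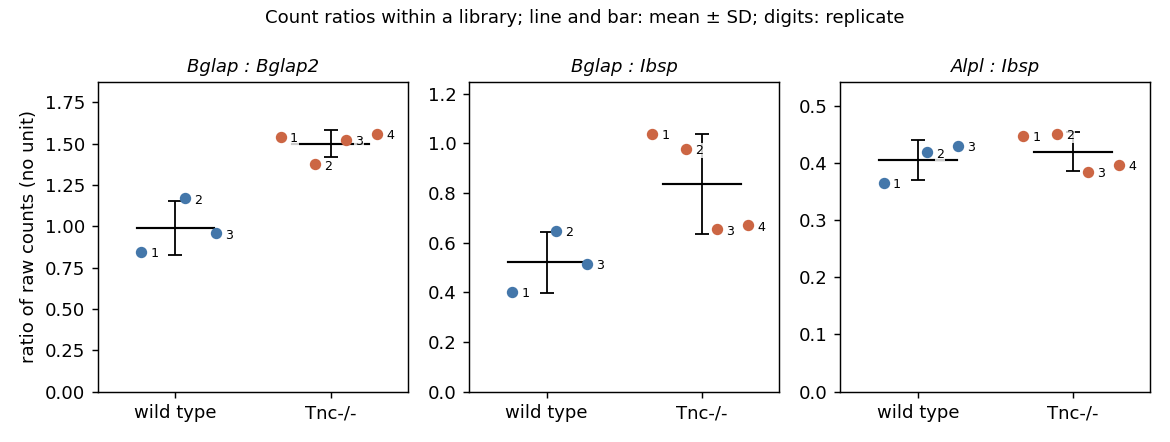
Ratio of raw counts of 2 genes within a library (no unit), for Bglap to Bglap2, Bglap to Ibsp and Alpl to Ibsp, in wild type (blue, n = 3) and Tnc-/- (orange, n = 4); points are libraries with their replicate number, the line is the mean and the bar is the SD. Both ratios with Bglap are higher in all Tnc-/- libraries than in all wild-type libraries, whereas Alpl to Ibsp stays between 0.366 and 0.451 in all 7.

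Marker lists of other cell types were set beside Bglap, each read against the 10.3% of all genes called higher. Of the erythroid genes 6 of 9 tested were called higher in Tnc-/-, and the list summed to 4808 to 9162 CPM in the wild type and 13438 to 26409 CPM in Tnc-/-. Of the 10 genes of neutrophils and marrow myeloid cells 7 were called higher, with sums of 2899 to 6107 and 6735 to 11514 CPM. Of the 10 muscle genes 2 were called higher and 8 did not pass, with sums of 25756 to 34356 and 36918 to 55696 CPM. Of the 8 adipocyte genes 2 were called higher, with sums of 513 to 827 and 675 to 1105 CPM. The summed levels of the genotypes did not overlap for the first 3 lists and overlapped for the adipocyte list. Without wild-type libraries 2 and 3 edgeR called 2 of the 9 erythroid genes higher and 0 of the marrow, muscle and adipocyte genes, beside 4.45% of all genes called in either direction in that fit. At an unadjusted p under 0.05 it had 4, 2, 2 and 4 genes of the 4 lists, beside 24.6% of all genes. Osteocytes, the cells embedded in bone that osteoblasts become, also make osteocalcin. Their defining markers Dmp1, Mepe and Sost had log2 fold changes of 0.15, 0.34 and 0.66, of which none passed the threshold. Of the 7 osteocyte genes 0 were called higher and 2 lower in edgeR, beside 10.3 and 18.7% of all genes. These were Phex, at -0.81 (edgeR adjusted p = 0.016), and the phosphate hormone Fgf23, at 0.805, 16.7 and 12.1 CPM in the wild type and 0.112 to 0.390 CPM in Tnc-/- (log2 fold change -5.26, edgeR adjusted p = 0.0083). In Fgf23 wild-type library 1 again lay near Tnc-/-, and without wild-type libraries 2 and 3 its log2 fold change was -1.66 (edgeR adjusted p = 0.35). In that fit 0 of the 7 osteocyte genes were called and 1, Phex, had an unadjusted p under 0.05. Pdpn was not called, at -0.35, and with Phex and Fgf23 made 3 of the 7 that were lower without overlap, beside 17.4% of all genes. The 7 genes summed to 204 to 231 CPM in the wild type and 167 to 228 CPM in Tnc-/-. The part of these cells in the difference of Bglap was not tested.

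Ibsp, the sialoprotein that binds to mineral and to cell surface integrins, had the highest mean CPM of the 9 genes in both genotypes. It was at 593, 397 and 350 CPM in the wild type and at 335, 336, 442 and 531 CPM in Tnc-/-. Wild-type library 1 was the highest of all, and the groups overlapped. The log2 fold change was -0.12 (SE 0.24, 95% interval -0.67 to 0.43, edgeR adjusted p = 0.74). It was 0.23 without wild-type library 1 and -0.53 without wild-type libraries 2 and 3. Relative to Ibsp, Bglap counts were 0.403, 0.648 and 0.514 in the wild type and 1.04, 0.979, 0.654 and 0.670 in Tnc-/-. These groups did not overlap, but wild-type library 2 and Tnc-/- library 3 were nearly equal.

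Omd, the keratan sulfate proteoglycan of bone matrix, was listed at 0 counts in all 7 libraries. So were Aspn, Ogn and Ecm2, its neighbours on chromosome 13. In GENCODE M21 all exon bases of these genes lie inside the span of Cenpp, a centromere protein gene on the opposite strand, which had 270 to 996 counts. Of 1411 protein-coding genes with all exon bases inside the spans of other genes 81.4% were at 0 in every library, whereas 14.9% of the 14027 without such overlap were. Of the 130 genes in the lists used here 9 were at 0 in every library, and all 9 had all exon bases inside another gene's span: Omd, Kazald1, Chad, Phospho1, Dlx6, Acp5, Col10a1, Scx and Alas2. In the Tnc-/- files 11.4 to 11.6% of listed reads stood in the row for ambiguous reads, which overlap more than 1 feature. The 0 of Omd is thus shared with genes placed as it is and does not show that it was not expressed.

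The enzyme Alpl was at 217, 166 and 150 CPM in the wild type. In Tnc-/- it was at 150, 152, 170 and 210 CPM. The ranges were nearly the same, and the log2 fold change was -0.06 (SE 0.18, 95% interval -0.47 to 0.35, edgeR adjusted p = 0.82). Its libraries kept the order of Ibsp closely, as the narrow range of the ratio between them shows. 

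Smpd3, the neutral sphingomyelinase whose loss impairs mineralisation of bone and cartilage, was at 65.1, 39.3 and 44.9 CPM in the wild type. In Tnc-/- it was at 40.1, 48.8, 57.3 and 69.2 CPM. The groups overlapped, with the lowest and the highest Tnc-/- library close to the lowest and the highest wild-type library. The log2 fold change was 0.11 (SE 0.23, 95% interval -0.41 to 0.63, edgeR adjusted p = 0.74). All exon bases of Smpd3 lie inside the annotated span of other genes too, among them Prmt7, yet unlike Omd it had 592 to 1323 counts per library.

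Ifitm5 (Bril), a membrane protein of mineralising osteoblasts, was near the limit of detection. It had 48, 0 and 6 counts in wild-type libraries 1 to 3 and 21, 19, 24 and 11 counts in Tnc-/-. Wild-type library 1 alone held both the highest level of all, 2.58 CPM, and most of its group's counts. The log2 fold change was -0.08 (SE 1.11, 95% interval -2.60 to 2.44), so neither a rise nor a fall was detectable. For Ifitm5 it was 2.38 without wild-type library 1 and -1.47 without wild-type libraries 2 and 3. Of its exon bases 65.5% lie inside the span of Gm45717 on the same strand, and that gene, at 16 to 48 counts in the wild type and 81 to 114 in Tnc-/-, was called higher (log2 fold change 1.52, SE 0.49, edgeR adjusted p = 0.046). How reads were divided between them was not tested.

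Sp7, the zinc finger factor needed for osteoblast differentiation, was at 69.3, 32.9 and 48.1 CPM in the wild type. In Tnc-/- it was at 55.3, 61.1, 66.3 and 68.1 CPM. Wild-type library 1 was the highest of all, and libraries 2 and 3 were the lowest. The log2 fold change was 0.32 (SE 0.23, 95% interval -0.20 to 0.84, edgeR adjusted p = 0.32). Without wild-type library 1 it was 0.72 and passed the threshold (edgeR adjusted p = 0.0025), and without libraries 2 and 3 it was -0.15 (edgeR adjusted p = 0.61). The log2 fold change of Sp7 thus turned negative without wild-type libraries 2 and 3, and it was -0.45 with the receptor genes as a covariate.

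Runx2 had the opposite pattern. It was at 57.3, 94.4 and 97.9 CPM in the wild type and at 48.4, 65.0, 61.1 and 47.6 CPM in Tnc-/-. Wild-type library 1 lay within the Tnc-/- range, and libraries 2 and 3 lay above it. The log2 fold change was -0.58 (SE 0.21, 95% interval -1.06 to -0.11, edgeR adjusted p = 0.065). Runx2 spans 319 kb, the longest of the 9, and long genes were raised in wild-type libraries 2 and 3. Without these libraries its log2 fold change was -0.05, and without wild-type library 1 it was -0.70 (edgeR adjusted p = 0.0013). With the receptor genes as a covariate it was 0.18 (edgeR adjusted p = 0.76). The covariate was higher in all wild-type than in all Tnc-/- libraries, so it and genotype are poorly separated in that fit. Opposite-strand transcripts such as Runx2os1 and Supt3 overlap Runx2, and 19.2% of its exon bases lie inside their spans.

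**Figure D3:**
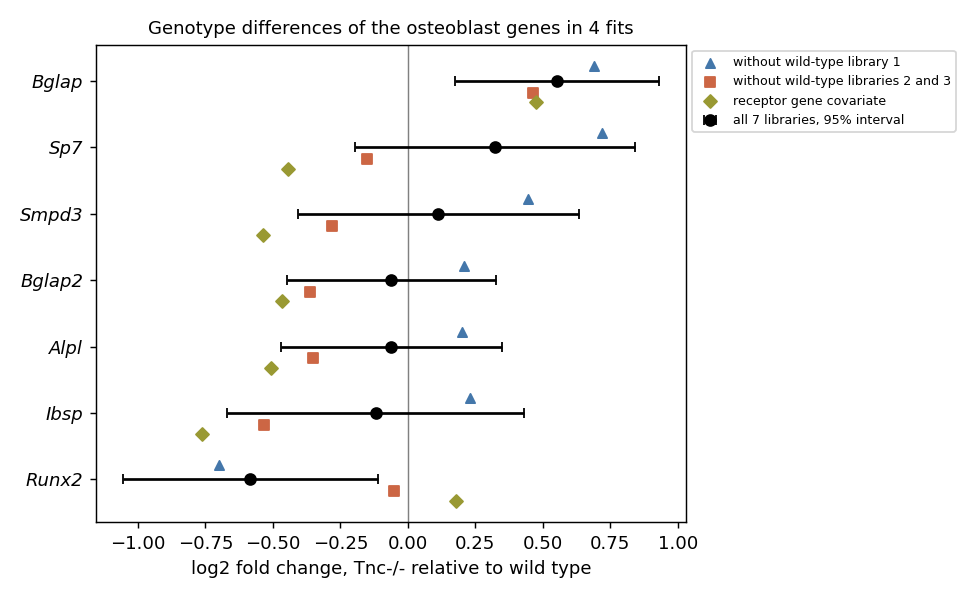
Log2 fold change of 7 osteoblast genes, Tnc-/- relative to wild type, with all 7 libraries (black, bars are the 95% interval), without wild-type library 1 (blue triangles), without wild-type libraries 2 and 3 (orange squares) and with the receptor genes as a covariate (olive diamonds). Bglap is above 0 in every fit shown, and Runx2 moves from -0.58 to -0.05 without libraries 2 and 3. For every other gene the fit without library 1 lies above 0 and the fit without libraries 2 and 3 below it. The covariate did not overlap between the genotypes.

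Runx2 protein binds DNA at the core letters ACCACA, and Bglap is a textbook target of it. The RefSeq promoter windows (250 bases before to 50 after the start of a gene, GRCm38.p6) held 6 of the 9 genes in 7 windows, and the windows of Bglap at chr3:88384417-88384716 and of Runx2 at chr17:44814578-44814877, both on the minus strand, are shown because they alone held these letters on either strand (the reverse is TGTGGT). Capitals mark the letters, 1 time in Bglap and 3 times in Runx2.
Bglap promoter: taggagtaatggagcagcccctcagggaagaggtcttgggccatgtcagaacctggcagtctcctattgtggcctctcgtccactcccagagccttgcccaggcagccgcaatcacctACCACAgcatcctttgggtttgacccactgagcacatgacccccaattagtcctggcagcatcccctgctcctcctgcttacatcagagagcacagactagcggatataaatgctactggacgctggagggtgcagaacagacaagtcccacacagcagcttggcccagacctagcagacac
Runx2 promoter: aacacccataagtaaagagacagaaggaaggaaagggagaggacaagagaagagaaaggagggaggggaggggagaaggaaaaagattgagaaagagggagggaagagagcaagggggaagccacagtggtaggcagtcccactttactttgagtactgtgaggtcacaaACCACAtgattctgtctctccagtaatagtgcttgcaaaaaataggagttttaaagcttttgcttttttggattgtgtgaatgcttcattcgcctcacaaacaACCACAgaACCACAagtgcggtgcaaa
The windows of Ibsp, Ifitm5 and Omd and both windows of Alpl had 0 matches, and 16.8% of all 32851 promoter windows of this length had at least 1. A match describes letters in the window and says nothing of binding in these joints. Bglap was higher in Tnc-/- while Runx2 was not called.

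The wild-type libraries also differed among themselves. In the mean of wild-type libraries 2 and 3, the log2 CPM of Sp7, Ibsp, Smpd3, Bglap2 and Alpl was lower than in library 1, by -0.77, -0.67, -0.62, -0.47 and -0.45, and that of Bglap by -0.13. Runx2 alone among the members was higher there, by 0.74. Leaving out wild-type library 1 gave 2 members called higher, Bglap and Sp7, against a background of 24.3%, and 1 lower, Runx2, against 39.9%. Leaving out libraries 2 and 3 gave 0 of 8 called in edgeR, against 4.45% of genes called in either direction. At an unadjusted p under 0.05 that fit had 2 of 8 members, beside 24.6% of genes, and the single wild-type library left is assumed there to vary like the others.

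**Figure D4:**
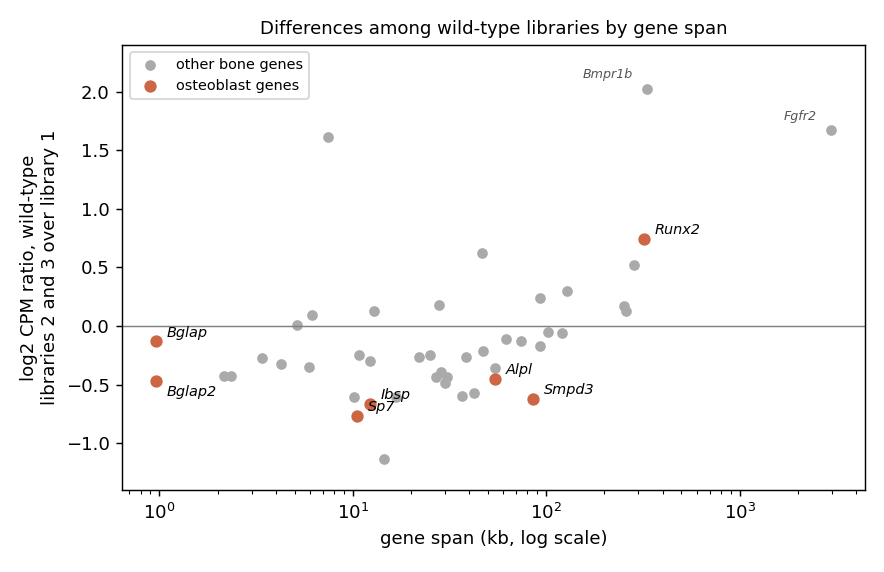
Log2 CPM ratio of the mean of wild-type libraries 2 and 3 to library 1 against the annotated gene span (kb, log scale), for osteoblast genes (orange) and other bone genes (grey). The osteoblast genes other than Runx2 lie below 0, between -0.77 and -0.13. Runx2, with the longest span of the osteoblast genes, lies at 0.74 (Ifitm5, at 0 counts in library 2, and 1 other bone gene are not drawn).

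The levels were also compared between genes, as CPM per kb of annotated exon. In the wild type the order was Bglap2 (489 ± 102, SD, n = 3), Bglap (365 ± 65.6), Ibsp (216 ± 62.3), Alpl (44.1 ± 8.58), Sp7 (14.7 ± 5.38), Smpd3 (9.51 ± 2.59), Runx2 (9.41 ± 2.55) and Ifitm5 (1.28 ± 1.82). In Tnc-/- Bglap came first at 535 ± 47.9 CPM per kb (SD, n = 4), then Bglap2 at 469 ± 45.5, with the rest in the same order from Ibsp at 199 ± 45.6 to Runx2 at 6.28 ± 1.001 and Ifitm5 at 1.23 ± 0.438. In both genotypes the libraries of Bglap and Bglap2 overlapped on this scale, and their order in the wild type rests on the length used. All annotated exons of Bglap cover 618 bases, but the transcript with the coding sequence shown has 440 (471 for Bglap2). Per kb of that transcript, an alternative added after seeing the data, Bglap was at 512 ± 92.2 CPM in the wild type, so its mean lay above that of Bglap2 in both genotypes. Sp7, Smpd3 and Runx2 were neighbours with overlapping libraries in the wild type but not in Tnc-/-, and the other neighbours did not overlap in either genotype. The 9 genes together summed to 1525, 1208 and 1059 CPM in the wild type and to 1203, 1232, 1277 and 1510 CPM in Tnc-/-, with overlap. Bglap, Bglap2 and Ibsp made up 67.7 to 75.5% of that sum.

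Other genes of bone formation were examined as 4 lists of 45 genes, of which 40 were tested. Of these 2 were called higher and 5 lower, beside the 10.3 and 18.7% of all genes, and the median log2 fold change was -0.03. Groups without overlap were seen in 3 higher and 6 lower genes, beside 17.7 and 17.4% of all genes. Without wild-type libraries 2 and 3 none of the 7 calls held in edgeR, where 0 of the 40 passed the threshold and 8 had an unadjusted p under 0.05, beside 24.6% of all genes in that fit.

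Of the bone matrix proteins 0 of 9 tested were called in edgeR. In edgeR 1 had an unadjusted p under 0.05, and DESeq2 called 1, in both cases the proteoglycan Dcn (log2 fold change -0.44). Over all genes 42.3% had an unadjusted edgeR p under 0.05, and DESeq2 called 22.9% lower. The chains of type I collagen, the bulk of bone matrix and abundant in tendon as well, had the highest mean CPM of the list in both genotypes. Col1a2 was at 17800, 10287 and 13193 CPM in the wild type and at 11578 to 19925 CPM in Tnc-/-, which gave 0.05 on the log2 scale (SE 0.29, edgeR adjusted p = 0.92). For Col1a1 it was 0.27 (SE 0.30, edgeR adjusted p = 0.54). Both were highest in Tnc-/- library 4 and lowest in wild-type library 2.

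Of the 8 mineralisation genes tested, Phex fell and the others were not called, beside 18.7% of all genes called lower. Phex, an endopeptidase of osteoblasts and osteocytes that restrains Fgf23, was at 34.7, 32.6 and 45.4 CPM in the wild type and at 21.5, 18.9, 26.9 and 18.3 CPM in Tnc-/-, without overlap. Its log2 fold change was -0.81 (SE 0.19, edgeR adjusted p = 0.016), and -0.70 (edgeR adjusted p = 0.082) without wild-type libraries 2 and 3. Phex was below 0 in all 17 alternatives that tested it and past the threshold in 10. By mean CPM over all 7 libraries the first of this list were Anxa5, a calcium-binding annexin of matrix vesicles, with a log2 fold change of -0.04, and Car2, the carbonic anhydrase of osteoclasts and red cells, with 0.92 (SE 0.38, edgeR adjusted p = 0.097). In the wild type alone the mean of Anxa6 (267 CPM) lay above that of Car2 (232 CPM).

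Of the 11 transcription factors tested, 1 was called higher, Atf4, and 1 lower, beside 10.3 and 18.7% of all genes. Atf4, which drives osteocalcin transcription and amino acid import in osteoblasts, was at 181, 148 and 122 CPM in the wild type and at 212 to 232 CPM in Tnc-/-, without overlap. Its log2 fold change was 0.55 (SE 0.16, edgeR adjusted p = 0.030), and 0.28 without wild-type libraries 2 and 3. The part of Atf4 in the level of Bglap was not tested. Cbfb, the partner subunit of Runx2, was at 154, 108 and 157 CPM in the wild type and at 106 to 117 CPM in Tnc-/-, and its log2 fold change was -0.32 (edgeR adjusted p = 0.14).

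Of the 12 receptors and signalling genes, Lrp5 rose and Fgfr2, Bmpr1b and Bmpr1a fell. Over all genes 10.3% were called higher and 18.7% lower. Lrp5, the Wnt co-receptor that sets bone mass, was at 63.8, 63.9 and 59.1 CPM in the wild type and at 84.5, 115, 90.0 and 99.0 CPM in Tnc-/-. The wild-type libraries were nearly equal and all Tnc-/- libraries lay above them, by 0.64 on the log2 scale (SE 0.14, edgeR adjusted p = 0.011), and by 0.60 (edgeR adjusted p = 0.091) without wild-type libraries 2 and 3. The FGF receptor Fgfr2 was at 91.3, 329 and 254 CPM in the wild type and at 69.6 to 79.6 CPM in Tnc-/-. The BMP receptor Bmpr1b was at 9.55, 47.2 and 33.4 CPM in the wild type and at 7.10 to 9.78 CPM in Tnc-/-. For both, wild-type library 1 lay near the Tnc-/- libraries. The log2 fold changes were -1.59 for Fgfr2 and -1.93 for Bmpr1b (edgeR adjusted p = 0.013 and 0.015), and -0.30 and -0.28 without wild-type libraries 2 and 3 (edgeR adjusted p = 0.25 and 0.57). Bmpr1a passed narrowly, at -0.42 (SE 0.14, edgeR adjusted p = 0.0498), and was at -0.26 (edgeR adjusted p = 0.35) without those libraries. By mean CPM over all 7 libraries the first of this list were Fgfr1 and Cthrc1, with log2 fold changes of 0.29 and 0.11 (edgeR adjusted p = 0.19 and 0.79). In the wild type alone the mean of Fgfr2 (225 CPM) lay above that of Cthrc1 (166 CPM).

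**Figure D5:**
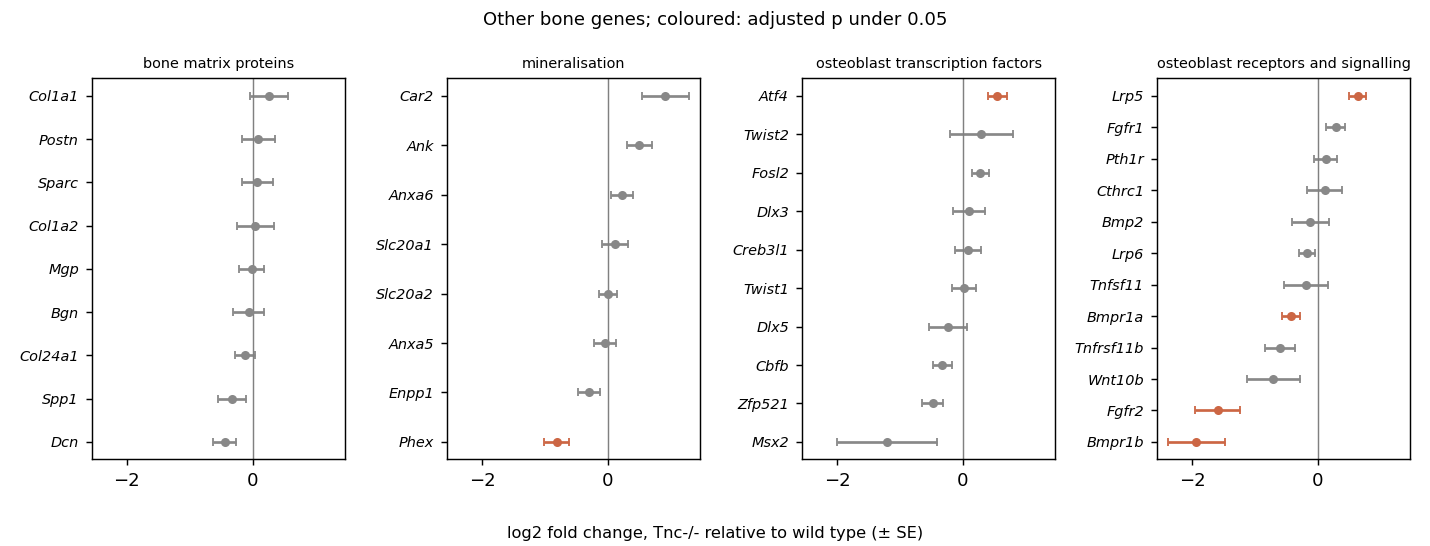
Log2 fold change of the tested genes of the 4 other bone lists, Tnc-/- relative to wild type, as points with ± 1 SE; coloured points have an edgeR adjusted p under 0.05, and 1 gene is not drawn. Atf4 and Lrp5 are coloured above 0, and Phex, Fgfr2, Bmpr1b and Bmpr1a below.

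Bone and cartilage cells next to osteoblasts were described by lists of markers. Of 9 osteoclast genes tested 2 were called higher (Itgb3 and Nfatc1, at 0.87 and 0.45 on the log2 scale) and 1 lower (Calcr, at -1.999), beside 10.3 and 18.7% of all genes. Calcr was at 1.77, 5.38 and 7.41 CPM in the wild type and at 0.891 to 1.46 CPM in Tnc-/-, so wild-type library 1 lay close to the Tnc-/- libraries. Without wild-type libraries 2 and 3 none of these 3 calls held, with Itgb3 at 0.42, Nfatc1 at 0.27 and Calcr at -0.55 (edgeR adjusted p = 0.28, 0.38 and 0.56), and Atp6v0d2, a proton pump subunit, was the 1 osteoclast gene called, at -0.82 (edgeR adjusted p = 0.035), beside 4.45% of all genes. The log2 fold change was below 0 for 7 of the 9, with a median of -0.25, and 4 were lower without overlap (Calcr, Ocstamp, Dcstamp and Oscar) against 2 higher, beside 17.4 and 17.7% of all genes. The list summed to 1191 to 1686 CPM in the wild type and 1289 to 1618 CPM in Tnc-/-. Its defining marker Acp5 is among the genes listed at 0, and Ctsk had a log2 fold change of -0.14 (edgeR adjusted p = 0.61). Of 12 cartilage genes 1 was called higher, Col11a2, at 1.198 on the log2 scale (0.69, with an edgeR adjusted p of 0.20, without wild-type libraries 2 and 3), beside 10.3% of all genes, and the sums were 1670 to 2778 and 1649 to 4316 CPM. Col2a1 and Acan, which define cartilage, had log2 fold changes of 0.36 and 0.60 without passing the threshold, and Tnc-/- library 4 was the highest for both.

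The genes whose levels followed those of the members most closely were sought over the 7 libraries, by Pearson's r of log2 CPM with the mean of the centred log2 CPM of the 8 members. Of the 12323 candidates, whose mean was 5 CPM or more, Nudt13 (r = 0.986), Arf3 (0.985), Ywhab (0.982) and Srpr (0.978) were among the first 5. Ifitm5, the member with the widest range on the log2 scale, was the only member left out in turn. Without it, over 7 members, the first were Cavin1 (r = 0.982), a coat protein of caveolae, Selenok (0.9747), Cxxc5 (0.970), Avpi1 (0.970) and Sparcl1 (0.969). In that second ranking the transcription factor Twist1 was in place 11 (r = 0.954), ahead of all other genes of the 4 bone lists. These values describe 7 libraries, which differ in depth and, by genotype, in the identifiers their files list, and carry no test.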

How the data were processed

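Raw counts of reads per gene, as deposited by the authors in 1 file per library, were analysed for 7 mouse shoulder joints. Per the submitters' processing notes, which name tools without their order, the authors used FastQC 0.11.9, HISAT2 2.2.1, HTSeq 2.0.2 and DESeq2 1.38.3 with the build GRCm39. The feature counted and the strand setting are not given in the sources used here. Rows that name no gene held 30.1 to 32.7% of the reads listed for Tnc-/- libraries and were left out; the wild-type files have none. Replicates of a group differed by a chi-square per degree of freedom of 22.0 to 132, so none was treated as a duplicate. With 3 and 4 mice, edgeR p-values set the group difference against the spread between these libraries, estimated in part from all genes.

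Counts were tested with edgeR 4.0.16 (R 4.3.3): default filterByExpr, TMM scaling, robust quasi-likelihood F test with genotype as the only term, Benjamini-Hochberg adjustment over all 17791 tested genes, threshold 0.05. The self-test was passed on simulated data with the same relative spread for every gene and no library set apart. It does not cover the differences among the wild-type libraries. Single ratios were compared by exact two-sided permutation tests (scipy 1.17.1) over the 35 ways to divide 7 libraries into 3 and 4. The 18 alternatives used DESeq2 1.42.0 adjusted by either Benjamini-Hochberg or, as the series text names, Bonferroni, limma 3.58.1 voom, other scalings and filters, each library left out, wild-type libraries 2 and 3 left out, the replicate number as a block, the log2 summed CPM of 1736 smell and pheromone receptor genes as a covariate, and genes of at most 30 kb alone. For the marker lists of other cell types, leaving out wild-type libraries 2 and 3 was added after seeing the data. Gene spans and exon lengths came from GENCODE M21 and promoters from RefSeq, both GRCm38 and so not the authors' build; they serve for names, lengths, overlaps and sequences only.

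The members and lists were chosen with earlier results of these data known. Named are the members, Tnc, Bglap3, called genes of the 4 other bone lists (up to 4 each by p) with the 2 of highest mean CPM over all libraries in each, the 5 genes of highest likeness and defining markers of other cells. Neighbours of Omd, Gm45717, Fgf23, Pdpn, Itgb3, Nfatc1, Calcr, Atp6v0d2, Anxa6, Ocstamp, Dcstamp, Oscar, Col11a2, Dcn, Twist1 and the genes listed at 0 were named after their values were seen. The rule also selects 2 genes not reported here.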

Additional observations from a re-analysis of the deposited data

Results flagged for a closer look

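Of 30 values per library tested in the 4 Tnc-/- libraries (members, ratios and sums), none had a lowest or highest library set apart from the rest by Dixon's test at its 95% level, which chance passes in about 1 of 20 groups. One signal outside the gene counts was picked out: reads in the row for ambiguous reads made up at least 11.4% of the reads listed in every Tnc-/- library. These are reads that overlap more than 1 feature, and Omd, whose exon bases all lie inside another gene's span, was listed at 0, as were 81.4% of the 1411 protein-coding genes so placed. The wild-type files have no such row, so the share could not be set beside that of the other genotype.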

How the results depend on the processing

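The count of genes called between genotypes, 5159 of 17791, was 1653 with DESeq2 and Bonferroni adjustment, 973 with limma voom, 435 with the receptor gene covariate, 1995 of the genes of at most 30 kb and 825 without wild-type libraries 2 and 3. It ran from 2229 (without wild-type library 3) to 14113 (without wild-type library 1) when 1 library was left out. Scaling by library totals moved the median of all genes to -0.24 and the split of calls from 1830 higher and 3329 lower to 951 and 4541. The split also moved by over 10 percentage points, towards lower, with Bonferroni adjustment (279 and 1374) and, towards higher, with limma voom (707 and 266), without wild-type libraries 2 and 3 (469 and 356) and with the covariate (207 and 228). More genes were thus called higher than lower in limma voom and without wild-type libraries 2 and 3. The causes were not tested.

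Members called higher, 1 in the report, numbered 0 with library totals, DESeq2 size factors, limma voom, DESeq2 with Bonferroni adjustment, at least 10 counts in every library, the covariate, genes of at most 30 kb and without wild-type libraries 2 and 3, and 0 to 2 with 1 library left out. Members called lower were 0 in the report. They numbered 1 with DESeq2 and Benjamini-Hochberg adjustment, library totals and at least 10 counts in every library, each time Runx2. In these settings 4069 and 4541 of 17791 genes and 2039 of 14223 were called lower. With 1 library left out members called lower numbered 0 to 1. The call of Bglap was lost without wild-type library 3 (0.42, edgeR adjusted p = 0.12) and without each Tnc-/- library (0.51 to 0.61). Of the 4 other bone lists, 2 genes were called higher and 5 lower. These were 0 and 0 with Bonferroni adjustment and with the covariate, and 1 and 1 with limma voom. With library totals they were 1 and 11 of 40 tested, beside 951 and 4541 of all 17791 genes. Among genes of at most 30 kb they were 0 and 1 of 20 tested, beside 825 and 1170 of 10049 genes. With 1 library left out they ran from 0 to 7 and from 1 to 7. Both were 7 without wild-type library 1, beside 24.3 and 39.9% of all genes.

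Log2 fold changes of members that were not called changed sign in some settings. With no filter Bglap2 was at 0.013 and Alpl at 0.013. With 1 library left out Bglap2 ran from -0.18 to 0.21, Ibsp from -0.27 to 0.23, Alpl from -0.18 to 0.20, Ifitm5 from -0.65 to 2.38 and Smpd3 from -0.034 to 0.45, with the highest value of each without wild-type library 1. Without wild-type libraries 2 and 3 Sp7 and Smpd3 were at -0.15 and -0.28. With the covariate Sp7, Smpd3 and Runx2 were at -0.45, -0.54 and 0.18, and the called Bmpr1b and Fgfr2 at 0.34 and 0.22. That covariate did not overlap between the genotypes. Ifitm5 was at 1.35 with limma voom, and Smpd3 at -0.12 with library totals. Tnc was called in all of its alternatives, at -2.80 to -3.60.

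The replicate numbers paired no samples: deviations of same-numbered libraries correlated at -0.029, 0.073 and -0.014. With the replicate block, over replicates 1 to 3, 1713 genes, 0 members higher and 0 lower, and 1 other bone gene higher and 1 lower were called. There Bglap was at 0.52 (edgeR adjusted p = 0.11), Ifitm5 at 1.39 and Smpd3 at -0.014.

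At 13.5 to 28.2 M counts per library Ifitm5 had 0 to 48 counts, the fewest of the members tested. Where 1 wild-type library is left, it is assumed to vary like the Tnc-/- libraries.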
